A study of Mus musculus with 4 samples.

Results

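A transcriptional start site in this series is a short interval of the genome in which sequencing reads begin. Described here are the start sites that cross an exon edge, which are the sites with class code e or o. These codes were assigned with Cuffcompare, a program that places a mapped interval relative to annotated exons. Code e marks a site that runs from an exon at least 10 bp into an intron. Code o marks a site that overlaps an exon on the strand of the gene and extends beyond it in another way, for example past the annotated 5′ end. All rows with these codes were taken, with no filter on reads. The table held 1292 e sites and 742 o sites, together 2034 of 42207 sites. The e sites fell in 797 gene symbols and the o sites in 677, and 155 symbols had both.

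The samples were gastrocnemius muscles, a fast limb muscle, of male mice about 8 weeks of age. The knockout group (KO) was AMPKα2-/- C57BL/6 mice, in which genomic sequence for part of the catalytic domain of AMPKα2 is removed, and the wild-type group (WT) held their controls. Each group had 2 libraries from separate animals. Prkaa2 is the gene of AMPKα2, one of the catalytic α subunits through which the AMP-activated protein kinase acts on metabolism when cellular energy is low. In whole transcriptome start site sequencing (WTSS-seq), reverse transcriptase adds a template-switching adaptor at the 5′ end of an RNA from which ribosomal RNA was depleted, the product is amplified by PCR, and reads are taken from that end.

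A capped messenger RNA begins at its promoter, so a read of this kind near an annotated first exon is the usual sign of a start site. RNA that was cut, degraded or decapped also has a 5′ end, and reverse transcription that stops early leaves a cDNA end that can be joined in the same way. A read that begins inside a gene can therefore come from an internal promoter or from a fragment, and the table holds nothing that separates them. A site whose interval covers both exon and intron bases also does not tell by itself whether its RNA was spliced.

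The 4 libraries held between 1300069 and 2900279 reads, and a count of 0 in a library allows up to 3 reads. Mitochondrial sites took 19.4% to 24.1% of the reads and 18S ribosomal RNA 15.2% to 17.6%. All 10 skeletal muscle markers had reads, with a summed normalized count of 65281 to 86730 per library. Hbb-bs and Hbb-bt, which encode β-globin, had no site, and the 2 of 6 blood markers with reads summed to 15.02 to 30.19. Prkaa2 had 19 sites and no e or o site. Its reads were 244 and 209 in KO against 109 and 149 in WT, which is 160, 180, 148 and 172 after normalization, so they gave no check of the labels, and whether the sites lie in the deleted sequence was not given in the sources used here.

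The 2 codes differed in width and depth. The e sites had a median width of 66 bp (range 21 to 542), the o sites 34 bp (6 to 309), sites inside an exon (code c) 25 bp and sites inside an intron (code i) 7 bp. Part of this order is fixed by the code, since an e site must hold at least 10 bp of intron. The median total over the 4 libraries was 48 reads for e, 25 for o, 19 for c and 17 for i. Reads were found in all 4 libraries for 1053 e sites (81.5%) and 513 o sites (69.1%), compared with 55.4% of c sites and 43.1% of i sites. Within a code, wider sites held more reads, with a Spearman correlation of 0.67 across e sites and 0.52 across o sites, where width and reads share the same read pile.

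**Figure D1:**
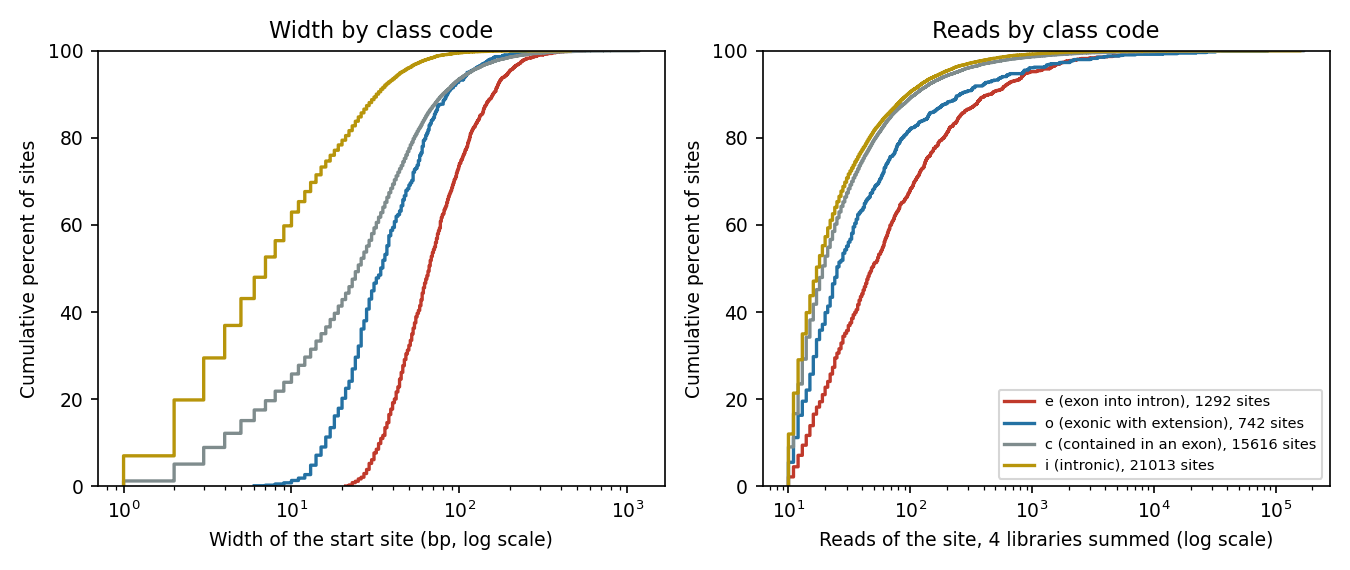
Cumulative percent of sites by width in bp (left) and by reads summed over the 4 libraries (right), both on log axes, for class codes e, o, c and i. The e curve lies farthest to the right in both panels, with a median of 66 bp and 48 reads, and the o curve follows with 34 bp and 25 reads.

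The sites of the 2 codes belonged to different kinds of genes. Of the e sites, 1285 (99.5%) were in protein-coding genes by the RefSeq gene table. Of the o sites, 618 (83.3%) were in protein-coding genes, 87 (11.7%) in pseudogenes and 5 more in transcribed pseudogenes, 8 in long non-coding RNAs and 6 in small nucleolar RNAs (snoRNAs), which guide the chemical modification of ribosomal RNA. Part of this contrast is fixed by the code, since a gene without an annotated intron cannot hold an e site. Code e was also crowded into a few genes. Ttn, Neb and Myh4 together held 167 of the e sites (12.9%) and 46.4% of the e reads. Ttn encodes titin and Neb encodes nebulin, giant proteins that span the sarcomere and its thin filament, and Myh4 encodes the myosin heavy chain of fast type IIB fibers. The largest o symbol, again Ttn, had 9 sites, and 630 of 677 o symbols (93.1%) had 1 site compared with 624 of 797 e symbols (78.3%).

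Reads were divided more unevenly among the o sites. The largest o site, in Car3, which encodes carbonic anhydrase 3, a very abundant enzyme of muscle and fat, held 27.9% of all o reads. The 10 largest o sites held 70.2% of the o reads, and the 10 largest e sites held 27.4% of the e reads. The largest e site outside Myh4, in Ttn, had 9860 reads.

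The 2 codes also lay in different places along the gene. Part of this is fixed by the code, since an e site must hold intron bases, which lie inside the gene. Almost all e sites (1289 of 1291 that could be placed) were wholly inside the gene, and their listed position was at a median of 68.0% of the gene length from the 5′ end. Of 730 o sites that could be placed, 260 (35.6%) reached past the 5′ end of the gene, by a median of 18 bp, 463 were inside it and 7 reached past the 3′ end. The sites past the 5′ end held 89.8% of all o reads (88.6% to 91.9% in the 4 libraries). They were wider than the o sites inside genes (median 46 against 29 bp) and deeper (48.5 against 20 reads). The 260 comprised 153 protein-coding genes, 88 pseudogenes (transcribed ones included) and 6 snoRNAs, while 459 of the 463 inside were in protein-coding genes.

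Many o sites were near annotated starts. The code sets part of the contrast with e here too, since an e site must reach an intron. Among sites of symbols with a RefSeq promoter window, the listed position was within 100 bp of a RefSeq start for 162 of 490 o sites (33.1%) and for 6 of 1008 e sites (0.595%), compared with 6.47% of c sites and 0.13% of i sites. The 162 o sites were listed at a median of 7 bp downstream of the start, and 61 o sites were within 10 bp of one. A site past the 5′ end of its gene was not always near the start in these windows, as with Hsd11b1, whose o site was listed at -21663 bp from the start in its window (negative values being upstream). With at least 20 reads required, the share of o sites near a start was 48.1%.

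**Figure D2:**
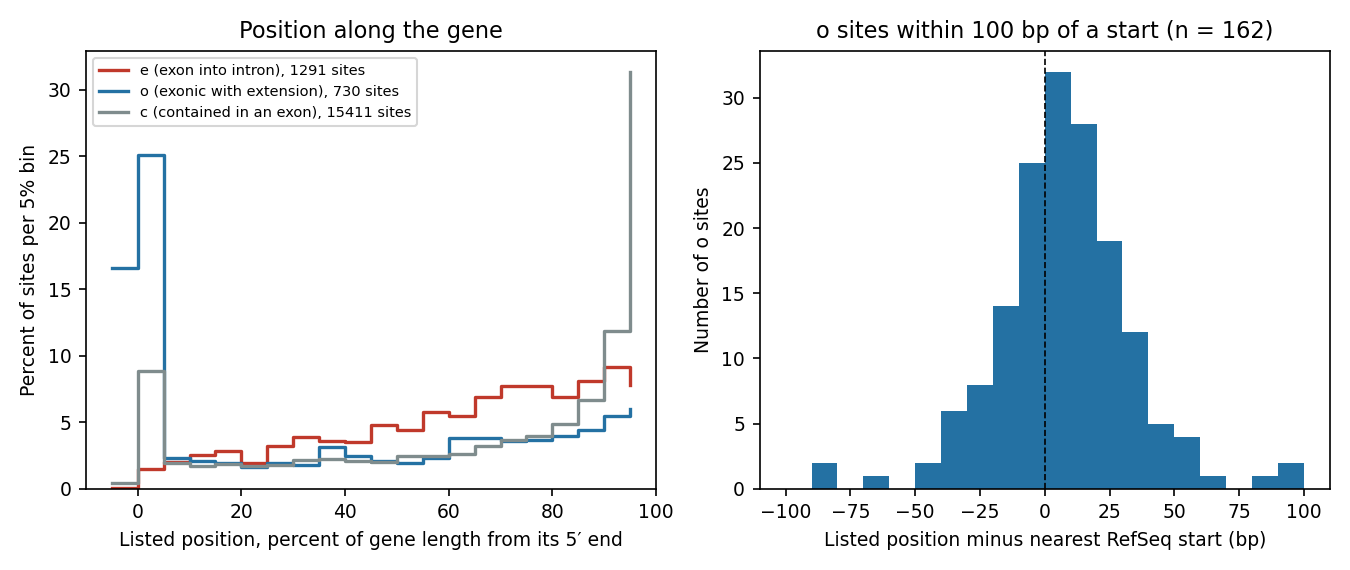
Left, percent of e, o and c sites in bins of 5% of the gene length from the 5′ end, the leftmost bin holding all sites listed before the annotated start. The o sites peak at the 5′ end, where 25.1% lie in the first 5% of the gene and 16.6% before it, and the e sites increase toward the 3′ end. Right, number of o sites by distance of the listed position from the nearest RefSeq start in bp, for the 162 sites within 100 bp.

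Sequences at 8 of these starts are shown because they let the listed position be compared with the annotated first base. The 8 are examples and not the deepest sites, since Bccip with 2205 reads was left out and Aldoa with 830 is shown. More of them are listed upstream than downstream of the start, whereas the median of the 162 o sites was 7 bp downstream. Each is 30 bases of the RefSeq promoter window (build GRCm38.p6), read 5′ to 3′ on the strand of the gene, with 15 bases before the listed position. Capitals mark bases at or downstream of the annotated RefSeq start, so that a run wholly in capitals starts downstream of it and a run in lower case ends upstream of it. Hypk encodes a partner of huntingtin, Atp2a1 the fast-muscle calcium pump SERCA1, Uqcrh a subunit of respiratory complex III, Tnnc2 fast troponin C, the calcium sensor of the thin filament, Aldoa the glycolytic enzyme aldolase A, and Tpm3 a tropomyosin. Tnrc6b acts in microRNA-guided silencing, and Uqcc2 helps to assemble complex III.
Hypk, chr2:121457101-121457130, plus strand: AGCCTATGCGGCGGCGCGGTGAGATCGAAA
Atp2a1, chr7:126463097-126463126, minus strand: gctgggggctgggggggtggccggctgcgc
Uqcrh, chr4:116075056-116075085, minus strand: ccgcacttccggccaGGTCGCCGGATATCC
Tnnc2, chr2:164779740-164779769, minus strand: gatgcccctacaaatcctgggggctagaga
Aldoa, chr7:126800401-126800430, minus strand: AGGGAGGAGGGAACCAGAGGAGGCAGTGGG
Tnrc6b, chr15:80798583-80798612, plus strand: gcttcctttagagacagagggggagagAGA
Tpm3, chr3:90072628-90072657, plus strand: ttcaaacctggggaactttgagtGACCCGG
Uqcc2, chr17:27133879-27133908, minus strand: ccccccaggggcggggcAAGCGGGGCCCAA
The listed position of Uqcrh was the annotated first base itself. That of Uqcc2 was 2 bp upstream, of Tpm3 8 bp, of Tnrc6b 12 bp, of Tnnc2 20 bp and of Atp2a1 38 bp upstream, while Hypk was listed 28 bp and Aldoa 32 bp downstream. What the listed position marks within a site was not given in the sources used here.

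Over the 145 o sites whose listed position and flanks fell inside a promoter window, guanine was 39.3% at the listed position, 62.8% and 61.4% at the 4th and 5th base after it, and 32.8% over the whole windows. The 459 c sites handled in the same way had 34.2% at the position, 54.5% and 68.8% at those bases, and 31.8% over their windows. All 32851 RefSeq promoter windows, each of 300 bases, held 27.3% guanine. The 4th and 5th bases are peaks picked from a profile, and the 7th was also high, 57.2% in o and 57.7% in c. So was the 15th, with 57.9% in o and 52.5% in c. Over the 10 bases before the position guanine was already 38.6% to 46.2% in o and 31.4% to 39.4% in c. The raised guanine content at these bases was thus shared by both codes and was not particular to the o sites. The 9th base differed, with 23.4% in o and 43.1% in c.

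The share of a gene's reads that e or o sites held was then computed, as the reads of the code over all reads of the same symbol. The median share over symbols was 25.5% for e (quartiles 9.29% and 56.3%) and 25.4% for o (6.22% and 78.4%), compared with 80.7% for c and 90.1% for i, each over the symbols that have the code. The similar medians of e and o covered different distributions. The o sites held all reads of 133 symbols and under 5% of the reads of 148 symbols, and for e these numbers were 52 and 119. An o site past the 5′ end held a median of 75.8% of the reads of its symbol, whereas an o site inside the gene held 10.4%. Symbols with 1 site in the table raise such shares, since that site holds 100% by construction. The difference by place was not recomputed without these symbols. There were 132 such symbols for o and 50 for e, and with symbols of at least 2 sites the median over symbols, averaged over libraries, was 13.14% for o in place of 23.5%.

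In the e symbols, the median share was 20.8% and 22.7% in KO against 26.2% and 33.0% in WT, means of 21.7% ± 1.40 and 29.6% ± 4.81 (SD, n = 2 each). Both KO libraries were below both WT libraries, and the difference of -7.81 percentage points had an exact two-sided permutation p of 0.333, the smallest that 2 against 2 allows. In the o symbols the medians were 20% and 25% in KO against 18.8% and 30.2% in WT, so the groups overlapped (difference -1.99 points, exact permutation p of 1). In the c symbols they were 77.8% and 83.3% in KO against 83.3% and 89.1% in WT, a difference of -5.68 points. In the i symbols the difference was 4.50 points. A lower median share in KO was thus not particular to e. Of all reads, e sites took 3.82% and 4.46% in KO against 4.13% and 5.41% in WT, and o sites took 3.03% and 4.54% in KO against 3.41% and 4.48% in WT. The groups overlapped for both codes, with differences of -0.63 points for e (exact permutation p of 0.667) and -0.16 points for o (exact permutation p of 1). The e difference was 0.005 points without WT replicate 2, and the o difference was 0.59 points without KO replicate 1 and 0.37 without WT replicate 2.

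Genes of the contractile apparatus carried most of the code e signal. Of the 42 listed sarcomere genes, 32 had e sites, 280 sites in all, and these held 53.5% of the reads of the list (51.0% and 53.9% in KO, 54.5% and 56.5% in WT). Their o sites numbered 41 in 19 genes and held 4.22%. Within the list the e share differed widely between genes. Myh4 had 26 e sites with 97.4% of its reads, Lmod2, which encodes leiomodin 2, a nucleator of actin filaments, had 1 with 94.4%, and Tnnt3, which encodes fast troponin T, had 7 with 93.4%. In Acta1, skeletal α-actin, the share was 91.3%, whereas Actn3, α-actinin 3 of the Z-disc, had 10 e sites with 18.4%, Tnni2, fast troponin I, had 4 with 8.54% and Xirp2 had 1 with 8.32%.

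Titin gave the most members. Its 90 e sites were 16.2% of its 556 sites, and 80 of them had reads in all 4 libraries. They held 37.6% and 40.9% of the reads of Ttn in KO against 40.6% and 42.4% in WT. Reads in this text are raw unless called normalized, and the size factors were 1.52 and 1.16 in KO against 0.737 and 0.866 in WT, so equal levels give more raw reads in KO. The e sites of Ttn were spread from 4.76% to 99.5% of the gene length, with a median at 67.5%, and were 29 to 542 bp wide. The widest e site of the table was in the last part of Ttn (chr2:76704824-76705365), with 322 and 201 reads in KO against 181 and 143 in WT (normalized 211 and 173 against 246 and 165, which overlap). The e site with the most reads in the gene (chr2:76786677-76786962) had 4054 and 2789 reads in KO against 1316 and 1701 in WT, 14.7% of its e reads. Normalized, this was 2660 and 2407 against 1786 and 1965, with a log2 fold change of 0.43 (SE 0.53) that was not called.

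Nebulin and the fast myosin differed from titin in how reads were divided between sites. Neb had 51 e sites with 60.8% and 63.7% of its reads in KO against 78.0% and 65.9% in WT, both WT libraries above both KO libraries. The o sites of Neb held 7.72% and 9.22% in KO against 0.49% and 13.3% in WT. The low o share in WT replicate 1 raises the e share of that library. A single site (chr2:52286027-52286190), with 1487 and 1380 reads in KO against 978 and 1247 in WT, made up 48.3% of the e reads of Neb. In Myh4 the 5 largest of 26 e sites held 69.5% of its e reads, in Ttn the 5 largest of 90 held 50.4%. The largest e site of all was in Myh4 (chr11:67258786-67258957), 172 bp wide, with 6270 and 5563 reads in KO against 3701 and 4656 in WT. Normalized, this was 4115 and 4801 against 5022 and 5378, both KO libraries below both WT libraries, and the log2 fold change of -0.22 (SE 0.53) was not called. The myosin heavy chain genes have long stretches of near-identical sequence, so the division of reads between Myh4, Myh1, Myh2 and Myh8 is uncertain. The largest e site of Myh8, the neonatal form, had 1976 and 2218 reads in KO against 590 and 1138 in WT (normalized 1297 and 1914 against 801 and 1314, which overlap).

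**Figure D3:**
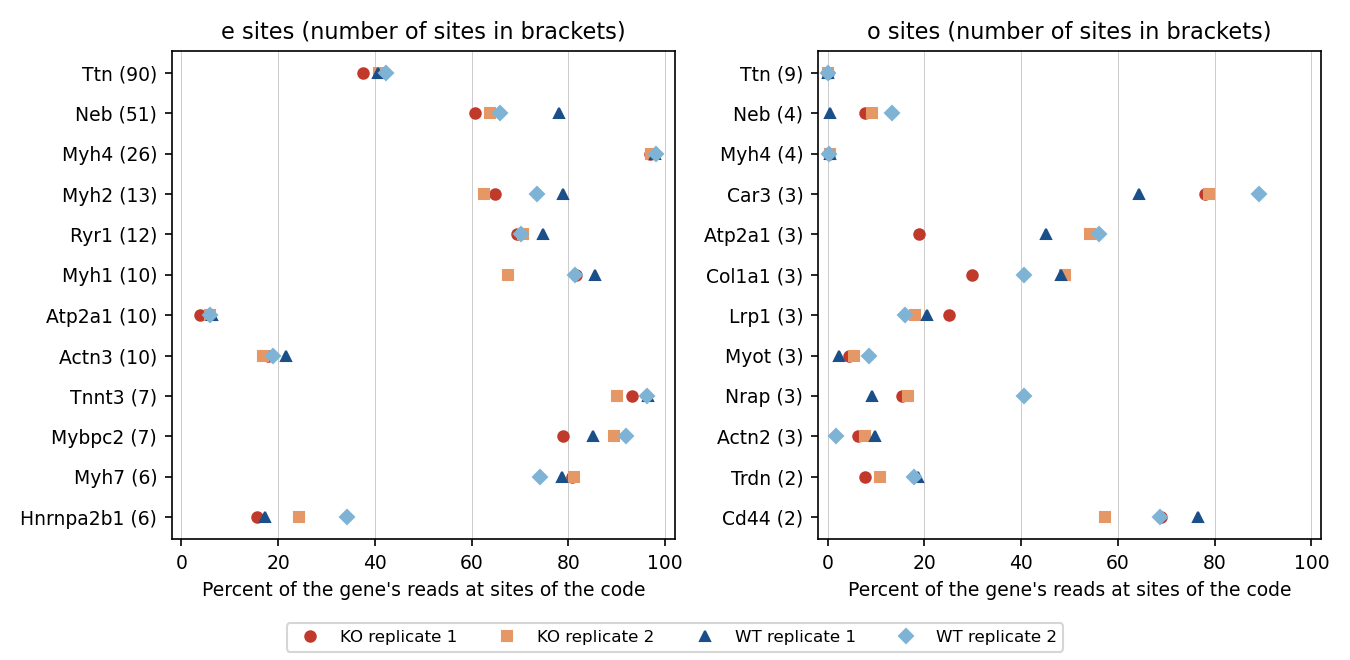
Percent of the reads of a gene that fell at its e sites (left) or o sites (right) in each of the 4 libraries, for the 12 symbols with the most sites of each code, with the number of sites in brackets. The 4 libraries lie close together for Ttn (37.6% to 42.4%) and Myh4 (96.8% to 98.2%) at e sites and spread widely for Atp2a1 (18.8% to 56.1%) at o sites.

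Other muscle pathways had fewer members, and their e share ran from 11.8% to 49.8%. In the 25 listed genes of glycolysis and glycogen metabolism, 11 had e sites, which held 45.6% of the reads of the list. Muscle creatine kinase, Ckm, had 5 e sites with 95.3% of its reads, and phosphofructokinase, Pfkm, had 4 with 84.3%. In the 29 nuclear genes of oxidative phosphorylation, 12 had e sites with 49.8% of the reads, among them Uqcrb of complex III with 81.2% in 1 site. For calcium handling and the membrane the e share was 11.8% and the o share 17.8%. In that list the calcium-release channel Ryr1 had 12 e sites with 70.6% of its reads, the luminal calcium buffer Casq1 had 3 with 84.6% and the cytosolic calcium buffer Pvalb had 2 with 90.7%. Atp2a1 was the reverse, with 10 e sites holding 5.18% and 3 o sites holding 39.0%. In the 22 genes of collagen and matrix, e sites held 24.8% of the reads, with 78.1% in Dcn, which encodes the proteoglycan decorin, and 15.5% in Col1a1, a chain of type I collagen, as examples with many reads. Only 1 of 18 ribosomal protein genes in the table had an e site, and the AMPK subunit genes had neither e nor o sites.

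A list of 9 genes that the study singled out from polyadenylation sites overlaps these pathways, and it was chosen on RNA of these mice. Of the 9, 7 had e sites (173 sites) and 5 had o sites (18 sites). Besides Ttn, Neb, Tnnt3 and Pfkm, Myh2, the type IIA myosin heavy chain, had 13 e sites with 67.8% of its reads, and the kinase gene Mylk4 had 2 with 0.68%. Of 133 e sites and 5 o sites tested in these genes, 0 were called in the comparison of levels by DESeq2, against 0.131% of all e sites and 3.21% of all sites tested.

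The o sites with the most reads were past the 5′ end of their genes. Car3 had 25336 and 33374 reads in KO against 11737 and 15229 in WT at a 53 bp site (chr3:14863496-14863548) that began 42 bp before the annotated start. This was 78.0% and 78.8% of the reads of Car3 in KO against 64.3% and 89.1% in WT. The normalized level was 22714 ± 8609 in KO and 16759 ± 1176 in WT (SD, n = 2), and the log2 fold change of 0.44 (SE 0.55) had a DESeq2 adjusted p of 1.00. Hypk had 9212 and 7858 reads in KO against 6665 and 8243 in WT, all of its reads being at this site. Normalized, this was 6045 and 6781 against 9044 and 9521, both KO libraries below both WT libraries, and the log2 fold change of -0.53 (SE 0.52) was not called. Atp2a1 had 3030 and 5211 in KO against 2551 and 4742 in WT, 18.6%, 54.0%, 44.9% and 56.0% of its reads, and normalized 1988 and 4497 against 3462 and 5477. KO replicate 1 was the low library for Atp2a1, and the groups overlapped for its share. Cst3, named for its share, had 94.0% of its reads at an o site with 668 and 1810 reads in KO against 263 and 340 in WT. Normalized, this was 438 and 1562 against 357 and 393, both KO libraries above both WT libraries. The log2 fold change of 1.42 (SE 0.68) was not called (DESeq2 adjusted p = 0.432).

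Small RNAs and pseudogenes formed another set of o sites. Snord32a, a snoRNA whose sequence lies within the ribosomal protein gene Rpl13a, had 8935 and 11050 reads in KO against 3503 and 3387 in WT at a 25 bp site beginning 7 bp before its annotated start. Its normalized level was 7700 ± 2597 in KO and 4333 ± 595 in WT (SD, n = 2). Both KO libraries were above both WT libraries, and the log2 fold change of 0.83 (SE 0.55) did not pass the test (DESeq2 adjusted p = 0.802). Snord99, within Snhg12, had 959 and 1930 reads in KO against 397 and 619 in WT (normalized 629 and 1666 against 539 and 715, which overlap). Snord82, within the nucleolin gene Ncl, had 759 and 948 in KO against 625 and 660 in WT. Normalized, Snord82 had 498 and 818 against 848 and 762, which overlap, with a log2 fold change of -0.29 (SE 0.57). Snord57, within Nop56, had 271 and 249 in KO against 186 and 241 in WT. Normalized, Snord57 had 178 and 215 against 252 and 278, both KO libraries below both WT libraries, with a log2 fold change of -0.44 (SE 0.60). These 3 were chosen after their values were seen, and none was called. The annotated host genes overlap these sites, so that reads of the host and of the snoRNA cannot be separated by position. Fabp3-ps1, a pseudogene copy of the heart and muscle fatty acid-binding protein gene, had 5860 and 6669 reads in KO against 2808 and 6752 in WT (normalized 3846 and 5755 against 3810 and 7799, which overlap). Gm6627 and Gm6394 held 97.0% and 96.6% of the reads of their symbols at o sites, and reads of such genes may belong to a near-identical parent gene.

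The level of each site was compared between KO and WT with DESeq2 over the whole table, in which 59.1% of e sites and 39.1% of o sites were deep enough to be tested. Among 763 e sites tested, 0 were up-regulated and 1 was down-regulated in KO (0.131% called), and among 290 o sites tested, 1 was up-regulated and 1 was down-regulated (0.69%). Over all 11112 sites tested, 3.21% were called, 2.33% up and 0.882% down. The share was 2.4% among c sites and 4.36% among i sites. The edgeR quasi-likelihood test called 0 e and 0 o sites, with 0.712% of all sites called (0.427% up and 0.285% down). At an unadjusted p under 0.05, DESeq2 had 11 e and 5 o sites (9.63% of all sites) and edgeR had 20 e and 10 o sites (10.3% of all sites). The median log2 fold change was -0.20 for tested e sites and -0.21 for o sites, compared with -0.12 for c, 0.42 for i and 0.10 for all tested sites.

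Of the 4 codes, the spread between replicates of the same group was smallest for e. The median difference between the 2 libraries on the log2 scale was 0.54 in KO and 0.59 in WT for e, 0.81 and 0.74 for o, 0.72 and 0.78 for c, and 0.86 and 1.05 for i. Among sites with a mean normalized count of 20 to 100 the order in KO was 0.53 for e, 0.62 for c, 0.75 for o and 0.80 for i, and in WT it was 0.57 for e, 0.61 for o, 0.74 for c and 0.97 for i. Sites whose KO and WT libraries did not overlap numbered 84 (11.01%) higher in KO and 209 (27.4%) higher in WT among tested e sites, and 13 (4.48%) and 70 (24.1%) among tested o sites. For all tested sites these shares were 23.0% and 17.4%. The e and o sites leaned toward WT, with 37.7% and 38.3% of tested sites higher in KO, and so did c sites with 44.3%, whereas i sites leaned toward KO with 64.1%. The size factor of a library was the same for every code, so normalization sets only the common zero point of these shares. The cause of the difference between the codes was not tested.

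**Figure D4:**
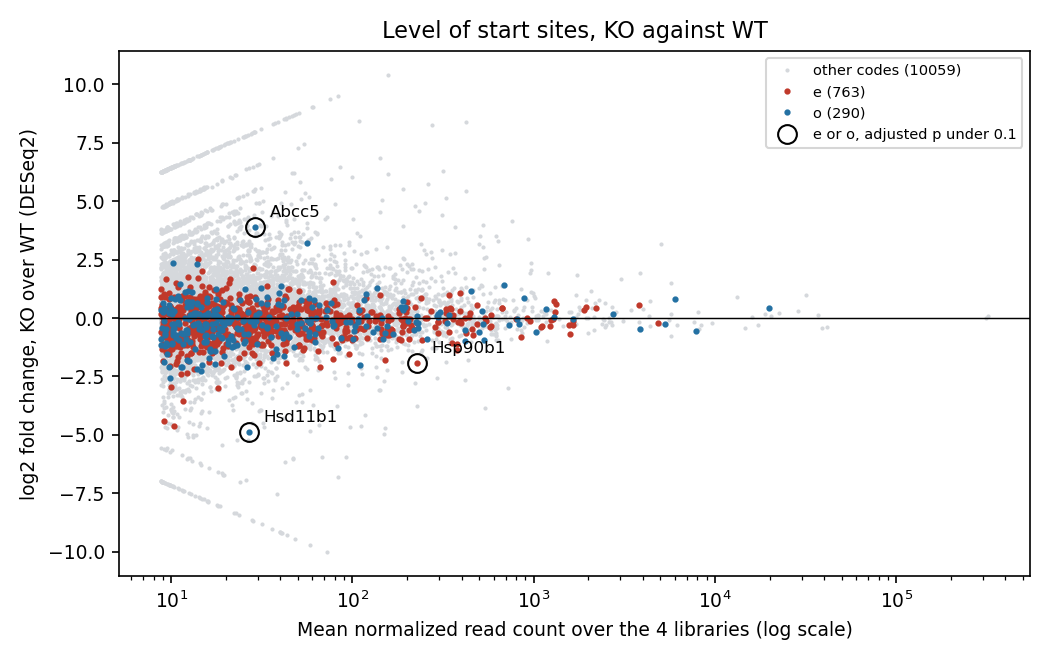
log2 fold change of KO over WT (DESeq2) against the mean normalized read count on a log axis, for the 11112 sites tested. Most e sites (red) lie between -1.13 and 0.68 and most o sites (blue) between -1.20 and 0.77. Some uncalled sites lie farther out, such as the e site of Sfr1 at -4.62. The 3 circled sites, Hsp90b1, Hsd11b1 and Abcc5, had an adjusted p under 0.1.

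The e site called was in Hsp90b1 (chr10:86704349-86704416), which encodes the endoplasmic reticulum chaperone GRP94. It had 124 and 125 reads in KO against 273 and 299 in WT, and its level fell by 1.92 on the log2 scale (SE 0.61, DESeq2 adjusted p = 0.0664), to 94.6 ± 18.7 normalized counts from 358 ± 17.7 (SD, n = 2). The groups were well apart. The site held 32.0% and 30.2% of the reads of Hsp90b1 in KO against 50.5% and 45.6% in WT, but the test of its use within the gene gave an adjusted p of 1.00 (diffSpliceDGE). A c site of the gene (chr10:86694008-86694067) also fell, with 39 and 24 reads in KO against 114 and 105 in WT, a log2 fold change of -2.57 (SE 0.74) and an adjusted p of 0.0299 in DESeq2. The 13 other sites of the gene summed to 173 and 249 normalized counts in KO against 364 and 412 in WT. The gene had 2 o sites, and neither was called. The one at its 5′ end (chr10:86705414-86705519) had 98 and 140 reads in KO against 16 and 84 in WT, a log2 fold change of 0.64 (SE 0.87). The one inside the gene (chr10:86692289-86692313) had 10 and 14 reads in KO against 10 and 29 in WT, a log2 fold change of -1.35 (SE 1.25).

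The o site that was lower in KO was in Hsd11b1 (chr1:193264017-193264062), which encodes the enzyme that regenerates active glucocorticoid. It had 5 and 0 reads in KO against 44 and 38 in WT. The log2 fold change was -4.90 (SE 1.28), and the DESeq2 adjusted p was 0.0124. The libraries of the groups did not overlap. The site reached 17 bp past the 5′ end of the gene and held 88.0% and 84.4% of the reads of Hsd11b1 in WT. The only other site of the gene had 5 and 6 reads in KO against 6 and 7 in WT. Summed adipocyte markers, 6 of 8 with reads, were 6350 and 2977 in KO against 5722 and 3097 in WT, which did not separate the groups. Summed immune markers, 4 of 6 with reads, were 65.0 and 94.1 in KO against 202 and 127 in WT, and the part of such cells in the result was not tested. In whole muscle, fewer cells of a type and less RNA per cell cannot be told apart.

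The o site that was higher in KO was in Abcc5 (chr16:20418809-20418821), an ATP-binding cassette transporter gene. It was 13 bp wide and inside the gene, and it had 45 and 92 reads in KO against 2 and 4 in WT. The log2 fold change was 3.88 (SE 1.17), and the DESeq2 adjusted p was 0.0487. The site held 34.1% and 57.5% of the reads of Abcc5 in KO against 7.69% and 12.1% in WT. The test of its use within the gene gave an adjusted p of 0.557 (diffSpliceDGE), and the WT shares rest on its 2 and 4 reads. The other 8 sites summed to 57.1 and 58.7 normalized counts in KO against 32.6 and 33.5 in WT, and 0 of the 2 that could be tested were called. The edgeR adjusted p-values of the 3 sites were 0.199 for Hsp90b1, 0.122 for Hsd11b1 and 0.147 for Abcc5.

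Sites with the next smallest p-values, chosen after their values were seen, were also read for their spread. The e site of Neb at chr2:52219290-52219414 had 27 and 38 reads in KO against 58 and 118 in WT (adjusted p of 0.192 in DESeq2). In Sfr1, a gene of recombination repair, the e site had 0 and 2 reads in KO against 20 and 11 in WT (adjusted p of 0.222 in DESeq2). In Myh2 the e site at chr11:67189278-67189373 had 6 and 5 reads in KO against 17 and 36 in WT (adjusted p of 0.257 in DESeq2). The o site of Papolg, which encodes a poly(A) polymerase, had 29 and 80 reads in KO against 86 and 203 in WT (adjusted p of 0.239 in DESeq2). In these 4 the libraries of the groups did not overlap, which a choice by small p-value favors, so it adds no support. For scale, 27.4% of all tested e sites and 24.1% of all tested o sites had both WT libraries above both KO libraries. For Tra2a, which encodes a splicing regulator, the o site had 304 and 4 reads in KO against 7 and 11 in WT, so that its log2 fold change of 3.19 came from 1 library.

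Use of the sites within their genes was tested with diffSpliceDGE, which compares the log2 fold change of a site with that of the other sites of its gene. Of 667 e sites and 179 o sites tested, 0 and 0 were called, with 0.757% of 8054 sites called in all (0.422% up and 0.335% down). At an unadjusted p under 0.05 there were 18 e and 8 o sites, compared with 6.66% of all sites tested. The smallest adjusted p was 0.153 for e, shared by sites of Myh2 and Pde4dip, and 0.354 for o.

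The pathway lists had 0 calls among their e and o sites, which is near the 0.131% of all e sites and 0.69% of all o sites called and is no result about the lists. In the sarcomere list, 107 of 220 tested e sites were higher in KO, with a median log2 fold change of -0.02. In collagen and matrix, 4 of 24 tested e sites were higher in KO with a median of -0.65, and 0 of 6 tested o sites with a median of -0.68. Reads of that list as a whole summed to 8098 and 6361 normalized counts in KO against 10016 and 8597 in WT, both KO libraries below both WT libraries, and the part of connective tissue cells in these values was not tested. In glycolysis and glycogen, 6 of 22 tested e sites were higher in KO with a median of -0.37. In calcium handling and membrane, 15 of 26 were higher in KO with a median of 0.11, and in oxidative phosphorylation 4 of 11 with -0.20. Among all tested e sites, 37.7% were higher in KO with a median of -0.20, and among all tested o sites 38.3% with a median of -0.21. The e sites of the sarcomere and calcium lists thus lay above the e sites as a whole. Those of the collagen and glycolysis lists lay below, and those of oxidative phosphorylation had about the same median. Over tested sites of every code, 53.5% were higher in KO with a median of 0.10.

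WT replicate 1 stood apart at a small set of these sites. Sites with at least 200 reads were searched, after the values had been seen, for a library over 8-fold below the median of the other 3 in normalized counts. In WT replicate 1 there were 4 of 244 e sites and 8 of 90 o sites (8.89%), and in the other 3 libraries there were 0 of either code. Among c sites 3.36% were low in WT replicate 1 and 3.58% in WT replicate 2, and among i sites 5.24% and 7.49%. Tnnc2 was the deepest. Its o site had 1564 and 1858 reads in KO, 34 in WT replicate 1 and 1718 in WT replicate 2, while the other sites of Tnnc2 together had 2722, 2798, 1334 and 2332 in the same order.

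The same held in other muscle genes. At 1 o site of Neb the reads were 386 and 407 in KO, 3 in WT replicate 1 and 500 in WT replicate 2, whereas the other sites of Neb had 2234 in WT replicate 1. Aldoa had an e site with 379, 405, 3 and 422 reads and an o site with 247, 314, 0 and 269. The Ndufa6 o site, in a gene of respiratory complex I, had 606, 971, 36 and 442. In Trim54, a muscle ubiquitin ligase gene, the o site had 194, 687, 51 and 504, and in Tcap, the titin cap of the Z-disc, it had 157, 330, 13 and 124. The other sites of this set were in Myh7, Mylpf and Hnrnpk for code e and in Snapc5 and Srpr for code o. The reverse, a library over 8-fold above the others, was seen once, at the Tra2a site in KO replicate 1. None of these 13 sites was called, and at the 12 low ones the WT mean rests on WT replicate 2.

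**Figure D5:**
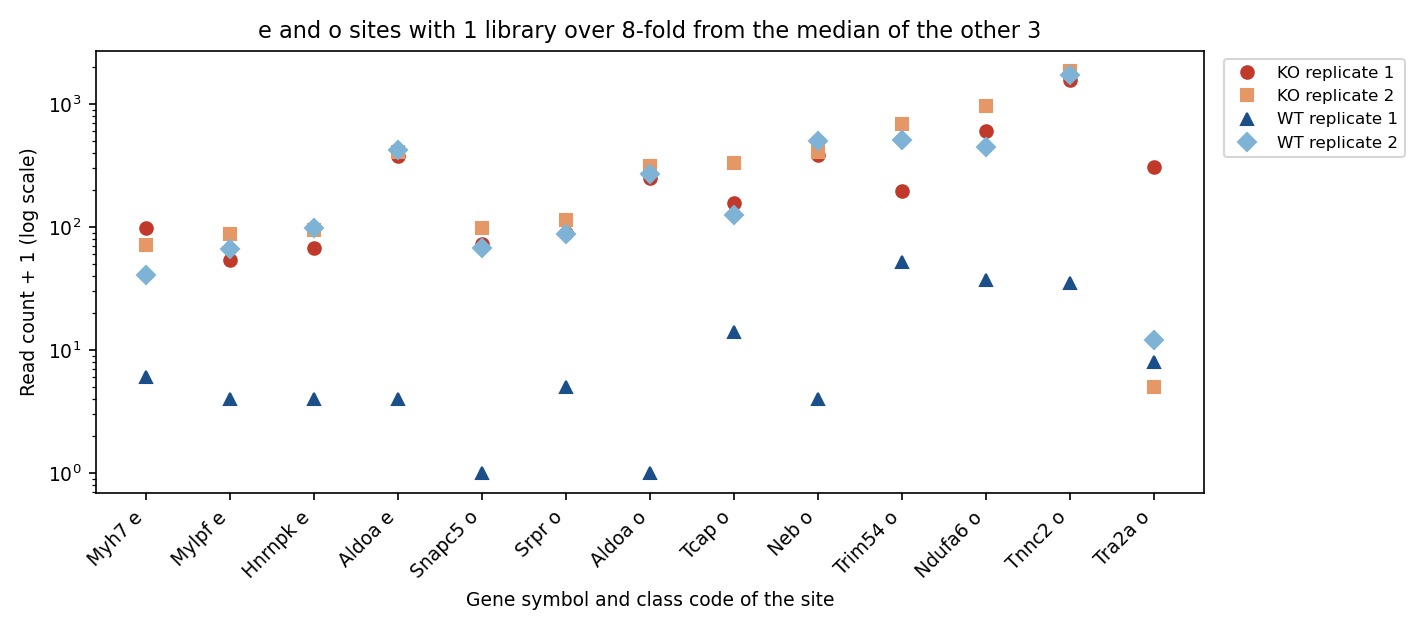
Read count plus 1 on a log axis in each of the 4 libraries, for the 13 e and o sites with at least 200 reads in which 1 library was over 8-fold from the median of the other 3. WT replicate 1 (dark blue triangles) is the low library at 12 of them, as at the o site of Tnnc2 with 34 reads, and KO replicate 1 (red circle) is the high library at Tra2a with 304 reads.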

How the data were processed

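WTSS-seq was applied to 2 KO and 2 WT gastrocnemius muscles. The authors deposited 1 table of raw read counts per clustered start site and library, with coordinates, gene symbol and Cuffcompare class code. The labels give the genome build as GRCm38.p5. Mapping and clustering of the 5′ reads were not given in the sources used here beyond this. The lowest total of a site was 10 reads, a minimum over all libraries, so sites present in 1 library were admitted. A last line of column totals matched the summed rows and was dropped. No molecular identifiers were described, so PCR copies count as reads, and the floor of 3 reads covers counting error only. Library totals of 1300069 to 2900279 limit what low sites can show.

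Groups and replicate numbers came from the labels. Members were all rows with code e or o. The members, the gene lists and the rules for naming sites were chosen with earlier results of these data known. Sites were named by code, with 1 site per symbol in each set, as the 5 with most reads, called sites, the 3 with the largest share of their symbol (at least 3 sites and 200 reads), the 3 widest and the 3 symbols with most sites. Others are named as chosen after their values were seen, and lists were described by counts and examples of the most reads. Not every site that met these rules is described above.

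Levels were compared with DESeq2 1.42.0 (Wald test, Benjamini-Hochberg adjusted p under 0.1 over all sites, R 4.3.3), which tested sites with a mean normalized count above 8.76. Normalized counts are counts divided by DESeq2 size factors. The edgeR 4.0.16 quasi-likelihood test was the alternative, and its diffSpliceDGE tested use. Both were tested on simulated data. Shares used exact two-sided permutation tests over the 4 libraries. Width was end minus start plus 1. Of 9838 symbols, 9262 matched the RefSeq gene table of GRCm38.p6 by name, and 18 further e sites and 18 further o sites were matched by synonym, with 10 o sites unmatched. RefSeq promoter windows covered 632 of the e symbols and 440 of the o symbols. Position along a gene, overhang and distance to a start rest on those tables, which share primary chromosome coordinates with p5. Reads of overlapping genes and near-identical copies were taken as the table gives them. One gene of the lists is not reported here by name.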

Additional observations from a re-analysis of the deposited data

How the results depend on the processing

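The 3 calls held with TMM size factors, with at least 20 reads per site and on primary chromosomes only, and were lost under edgeR, where the log2 fold changes were -1.98 for Hsp90b1, -4.84 for Hsd11b1 and 3.76 for Abcc5. The e site called down and the o site called up were 0 under edgeR, with independent filtering off, with the replicate block in DESeq2 and with the block in edgeR (the last added after seeing the data), the e site also at an adjusted p under 0.05, and the o site called down was 0 under edgeR with and without the block. Leaving out 1 library in turn, which assumes that the lone library varies like the other group, gave 0 to 3 e sites called up, 0 to 1 e site called down, 0 to 6 o sites called up, 0 to 1 o site called down and 0 to 2 o sites up in use, the highest counts of up-regulated sites coming without WT replicate 2. The same-numbered libraries share only a number (correlation of their deviations 0.0703 over 10728 sites), so the block was not taken as pairing. The difference in the share of reads ran from -1.27 to 0.0053 points for e and from -0.91 to 0.59 for o when 1 library was left out, where o was 0.37 without WT replicate 2. The median share of o symbols was 14.4% with at least 50 reads per symbol and 13.14% with at least 2 sites. With at least 20 reads per site the median width was 77 bp for e and 45 bp for o and 48.1% of o sites were near a start, and 1.49% of e sites were within 500 bp of one. Of 36 named sites, uncalled values changed sign in 22 of 383 refits. For Itgb1bp2 the log2 fold change was 0.026 with TMM size factors and 0.018 with the replicate block. With 1 library left out it ran from -0.25 to 0.24 for Itgb1bp2, -0.23 to 0.043 for Tnnt3, -0.53 to 0.19 for Ctsl, -0.40 to 0.22 for the widest site of Ttn, -0.32 to 0.087 for the widest of Myh4, -0.031 to 0.82 for Car3, -0.70 to 0.29 for Fabp3-ps1, -1.19 to 0.047 for Atp2a1, -0.32 to 0.20 for Gm6627, -0.63 to 0.31 for Ythdc1, -0.014 to 1.45 for Snord99 and -0.71 to 0.056 for Snord82. Sites below the mean count that was tested, the remainder of both codes, were limited by depth.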
